A study of Mus musculus with 24 samples.

Results

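The genes described here belong to the tumour necrosis factor (TNF) superfamily of membrane-bound ligands and their receptors, as T cells use them. They are the ligands Tnfsf8, Tnfsf11, Tnfsf14 and Cd40lg, the receptors Tnfrsf4, Tnfrsf9, Tnfrsf18, Tnfrsf1b and Cd27, and the adaptor Traf5. They were chosen by name, with earlier results of these data known, and are 10 of the 17097 genes on the array. Each was read from its probe set with the highest average over the 24 arrays. RNA came from naive CD4 T cells sorted from mouse spleen and peripheral lymph nodes as CD4+, CD62Lhi, CD44lo and CD25-. The cells were of the genotype CD4(cre)Raptor(fl/fl), here called Raptor-deficient, or wild type, with the strain given as C57BL/6 for the wild type only. In the Raptor-deficient mice both Raptor alleles are floxed and Cre recombinase is driven by the Cd4 promoter, so the deletion is not limited to the sorted cells but extends to other cells that have used that promoter. Cells were taken unstimulated, or after 8 h or 24 h on plate-bound antibodies to CD3 and CD28, with 4 samples in each of the 6 groups. Ages were not given in the sources used here, and no label says whether the 4 samples of a group came from separate animals, so the spread behind the p-values may be technical. Values are log2 intensities, and differences are differences of log2 means. Intensities of different genes were read by different probes, so levels are compared only within a gene.

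TNF superfamily receptors on T cells carry costimulatory signals after the T cell receptor has been engaged, and their ligands sit on antigen-presenting cells and on T cells themselves. Most of the T cell receptors of the family recruit TRAF adaptors and through them activate NF-kappaB. Raptor is the defining subunit of mTORC1, the kinase complex that couples nutrient and growth signals to cell growth. The series is titled as a study of how Raptor and mTORC1 act when T cells leave quiescence.

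Rptor, the gene that the Cre targets, averaged 6.66 ± 0.60, 6.49 ± 0.22 and 6.45 ± 0.15 in Raptor-deficient cells unstimulated, at 8 h and at 24 h, against 7.28 ± 0.20, 7.51 ± 0.04 and 7.08 ± 0.13 in wild-type cells (SD, n = 4 each). Its difference passed the test at 8 h and 24 h (limma, adjusted p = 0.000292 and 0.0109) and not in unstimulated cells (adjusted p = 0.075), where the groups overlapped. A second Rptor probe set was lower by 0.58, 0.66 and 0.60 in unstimulated, 8 h and 24 h cells and passed the test at all 3 times (adjusted p = 0.00102, 2.78e-05 and 3.33e-05). Replicates correlated at 0.978 or more across genes. The unstimulated Raptor-deficient group held the noisiest arrays, with residual SDs of up to 0.280, against at most 0.172 in the other groups. Replicate 1 of both 24 h groups also stood apart, with a summed level of 5 liver genes of 10.3 in the Raptor-deficient and 10.2 in the wild-type sample, against at most 7.82 in the other 4 groups; without both samples 7 members were called between genotypes at 24 h, as with them. Of 10 listed markers of alpha beta CD4 T cells 9 were measured, and all 9 reached 5.51, the median of all values, in every group. Called lower in Raptor-deficient cells were 3 of them unstimulated (Cd4 by 0.37, Cd6 by 0.69 and Trat1 by 0.71), 3 at 8 h (Cd4 by 0.36, Cd6 by 0.59 and Thy1 by 0.70) and Thy1 at 24 h by 0.39, with 0 called higher, and the part of this in the members' differences was not tested. Values below 5.51 are called near background here. That line is the median of all values, no background was measured, and genes can still differ under it. Folds taken from group means below it are folds of measured intensity only.

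Promoter windows of 300 bases, 250 before and 50 from the annotated start onward, were available for 9 of the 10 genes in RefSeq's annotation of GRCm38.p6, with 2 starts for Tnfrsf9; Cd40lg is named only. They are shown for Tnfsf8, the one of the 10 genes with the largest genotype difference, and for both starts of Tnfrsf9, which rose the most of their receptors. They are also shown for Tnfsf14, which rose without a called genotype difference. Each is written 5′ to 3′ on the strand of its gene, and capitals mark matches to 3 motifs of activation-induced factors, AP-1 (TGANTCA), NFAT (TGGAAA) and kappaB, searched on both strands.
Tnfsf8, chr4:63861235-63861534, minus strand: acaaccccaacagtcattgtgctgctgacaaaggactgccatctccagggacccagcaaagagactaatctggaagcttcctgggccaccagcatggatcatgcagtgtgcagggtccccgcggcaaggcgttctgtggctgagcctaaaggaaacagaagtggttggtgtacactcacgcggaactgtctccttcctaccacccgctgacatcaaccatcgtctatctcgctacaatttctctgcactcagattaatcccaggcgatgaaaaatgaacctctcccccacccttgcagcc
Tnfsf14, chr17:57194132-57194431, minus strand: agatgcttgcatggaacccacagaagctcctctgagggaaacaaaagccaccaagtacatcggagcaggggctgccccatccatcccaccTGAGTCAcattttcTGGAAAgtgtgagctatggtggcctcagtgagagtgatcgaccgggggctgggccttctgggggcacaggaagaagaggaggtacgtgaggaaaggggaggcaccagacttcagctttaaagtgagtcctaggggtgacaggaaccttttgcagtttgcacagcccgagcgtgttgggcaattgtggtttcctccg
Tnfrsf9, first start, chr4:150919905-150920204, plus strand: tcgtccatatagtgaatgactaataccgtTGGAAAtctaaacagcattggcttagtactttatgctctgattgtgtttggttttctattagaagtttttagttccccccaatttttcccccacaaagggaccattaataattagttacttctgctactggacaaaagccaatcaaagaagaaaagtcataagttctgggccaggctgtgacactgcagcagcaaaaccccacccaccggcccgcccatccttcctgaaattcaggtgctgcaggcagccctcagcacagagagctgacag
Tnfrsf9, second start, chr4:150927749-150928048, plus strand: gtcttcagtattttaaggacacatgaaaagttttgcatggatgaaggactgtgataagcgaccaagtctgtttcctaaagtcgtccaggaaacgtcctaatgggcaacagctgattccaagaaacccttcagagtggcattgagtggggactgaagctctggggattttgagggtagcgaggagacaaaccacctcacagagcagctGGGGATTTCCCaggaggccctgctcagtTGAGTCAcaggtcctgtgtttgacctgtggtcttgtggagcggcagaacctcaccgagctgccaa

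The Tnfsf8 window held no match. The Tnfsf14 window held an AP-1 match from -160 to -154, read alike on both strands, and an NFAT match from -146 to -141, counting the base before the start as -1. The first Tnfrsf9 start had an NFAT match from -221 to -216, and the second start had an AP-1 match from -15 to -9 and 3 overlapping kappaB matches between -43 and -33. The remaining match among the 10 windows was NFAT on the opposite strand of Tnfrsf4, from -220 to -215. AP-1 was thus found in 2 of 10 windows, against 7.81% of all 32851 windows in the annotation, kappaB in 1 of 10, against 8.46%, and NFAT in 3 of 10, against 21.4%. AP-1 and kappaB stood together in 1 of 10 windows and in 0.539% of all. A match describes the letters of the window and was not tested as a binding site.

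**Figure D1:**
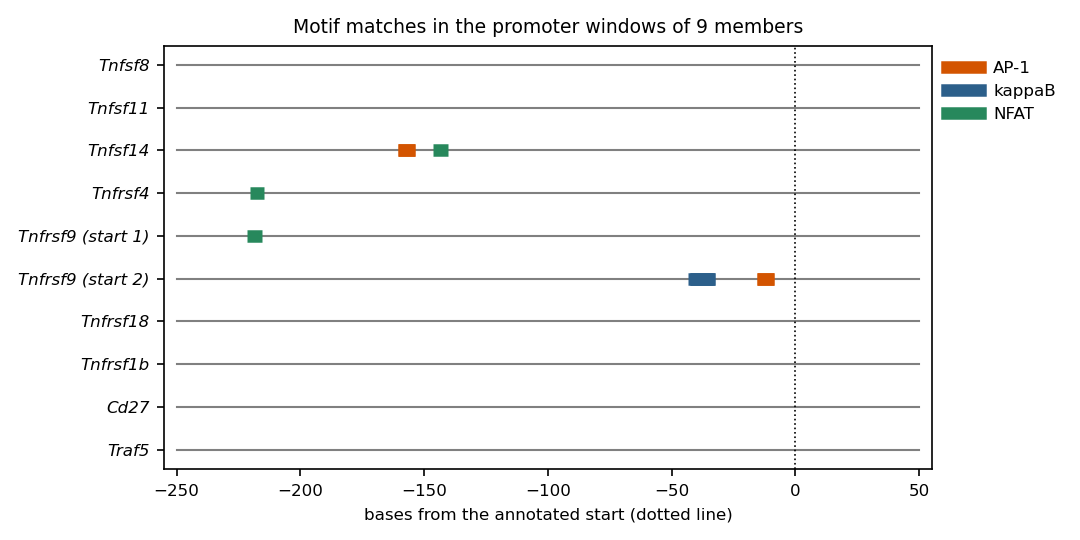
Positions of motif matches in the 10 promoter windows, with bases from the annotated start on the x axis and 1 line for each window. Tnfsf14 and the second start of Tnfrsf9 carry an AP-1 match, the second start of Tnfrsf9 also kappaB matches near the start, and the windows of Tnfsf8, Tnfsf11, Tnfrsf18, Tnfrsf1b, Cd27 and Traf5 carry none.

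In the genome, 5 of the 10 genes lie on chromosome 4. Tnfrsf4 and Tnfrsf18 are direct neighbours there among protein-coding genes, Tnfrsf1b is next to Tnfrsf8, and Tnfsf8 is next to Tnfsf15. Tnfsf14 on chromosome 17 is next to Cd70. Neighbours did not share a pattern in every case: Tnfrsf18 was higher in Raptor-deficient cells at 24 h and Tnfrsf4 was not called at any time, as described below.

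Stimulation changed all 10 genes by 8 h in both genotypes, 9 upward and Traf5 downward, each by at least 2-fold. In the table as a whole 32.8% of genes were called between 8 h and unstimulated Raptor-deficient cells, and 39.7% in wild-type cells, and those both called and changed at least 2-fold made up 6.7% in Raptor-deficient cells and 10.7% in wild-type cells. The members' median difference at 8 h was 2.20 in Raptor-deficient cells and 2.36 in wild-type cells, with medians of 0.00 and -0.03 over all genes. At 24 h against unstimulated cells 10 of 10 were called in Raptor-deficient cells (39.1% of all genes) and 9 of 10 in wild-type cells (49.7% of all genes), Cd27 being the one not called. These comparisons share the unstimulated samples of their genotype.

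**Figure D2:**
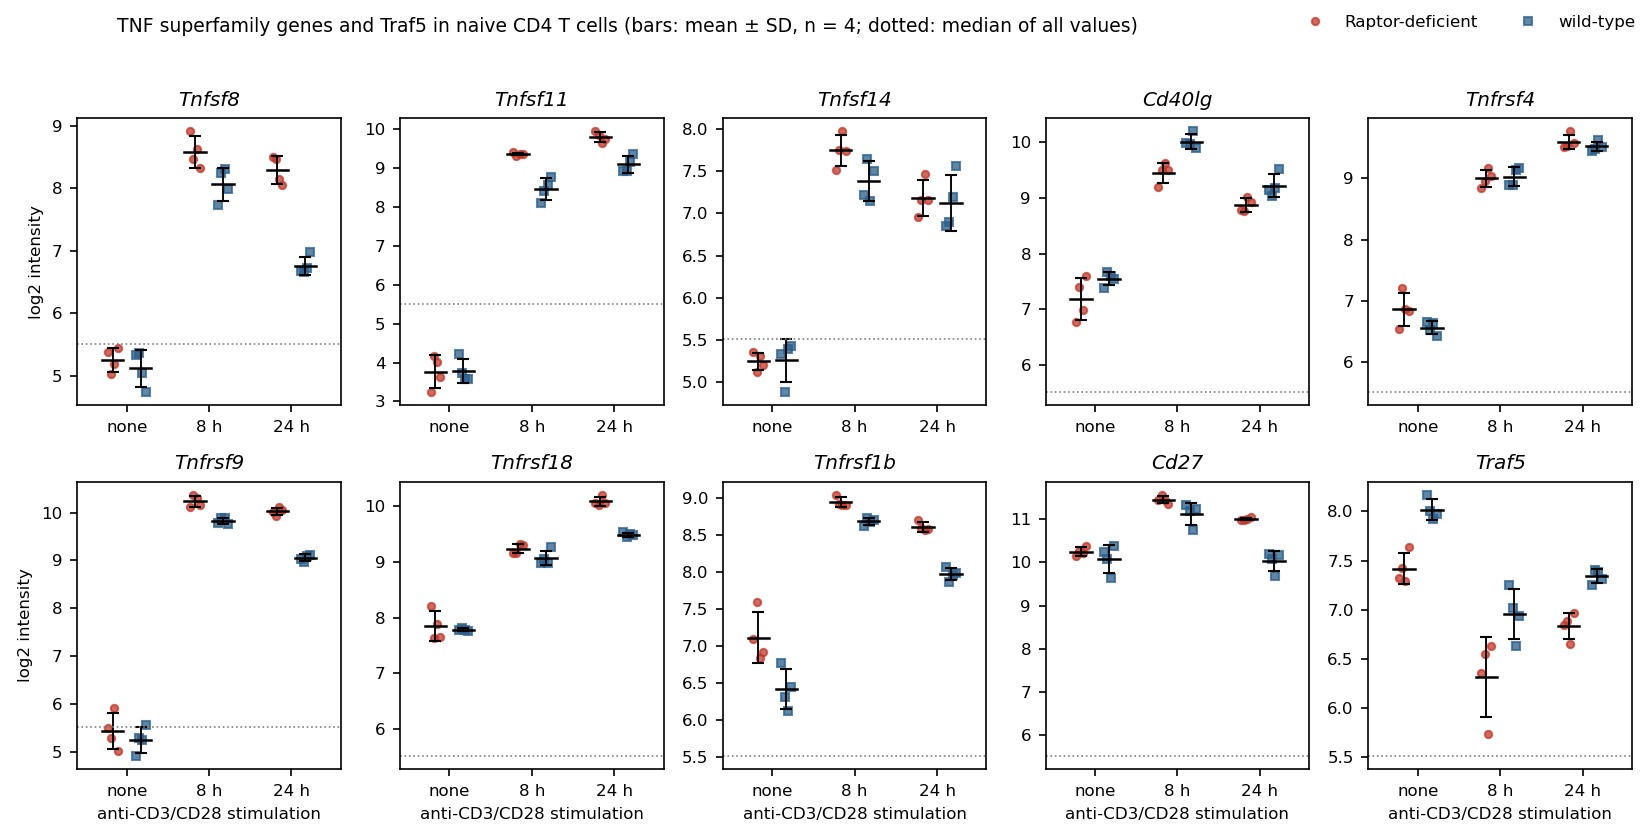
The log2 intensity of each of the 10 genes in every sample by time of stimulation, Raptor-deficient samples as circles on the left and wild-type samples as squares on the right, with mean and SD (n = 4); the dotted line is the median of all values, 5.51, and the y axes differ between panels. At 24 h the samples of the 2 genotypes do not overlap for 8 genes, and overlap for Tnfsf14 and Tnfrsf4.

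Between genotypes, 2 members were called in unstimulated cells, where 1.94% of all genes were, 5 at 8 h, where 12.9% were, and 7 at 24 h, where 21.5% were. At 24 h, 6 members were higher in Raptor-deficient cells (Tnfsf8, Tnfsf11, Tnfrsf9, Tnfrsf18, Tnfrsf1b and Cd27), against 8.35% of all genes, and Traf5 was lower. At 8 h Tnfsf8, Tnfsf11 and Tnfrsf9 were higher and Cd40lg and Traf5 lower, and in unstimulated cells Tnfrsf1b was higher and Traf5 lower. The members' median difference was 0.10 unstimulated, 0.29 at 8 h and 0.62 at 24 h, with medians between -0.01 and 0.01 over all genes. The groups of 4 did not overlap for 2, 6 and 8 members at these times, against 5.48%, 19.1% and 28.4% of all genes.

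**Figure D3:**
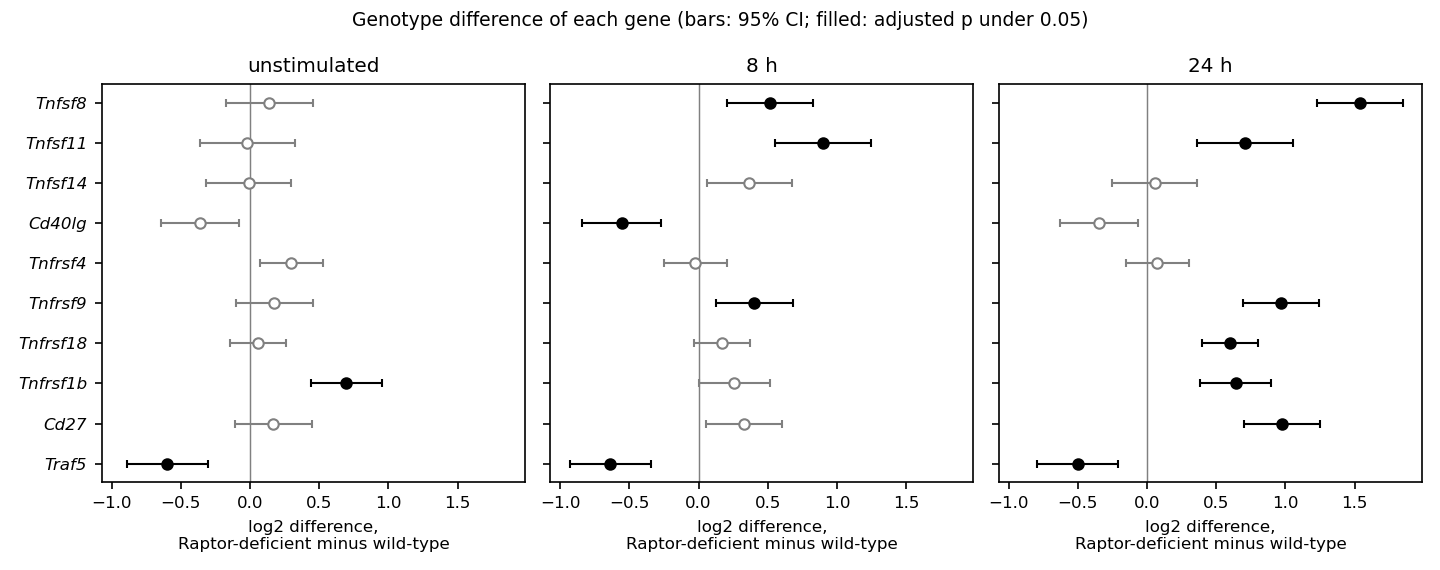
Log2 difference of Raptor-deficient minus wild-type cells for each gene, unstimulated, at 8 h and at 24 h, with 95% confidence intervals; filled points have an adjusted p under 0.05. The called points are 2, 5 and 7 in the 3 panels, Traf5 lies left of 0 in each, and Tnfsf8 at 24 h lies farthest from 0.

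Among the ligands, Tnfsf8 (CD30 ligand) differed most between genotypes. Its samples stood at 8.49, 8.47, 8.15 and 8.06 in Raptor-deficient cells at 24 h, against 6.68, 6.66, 6.72 and 6.97 in wild-type cells. At 8 h they stood at 8.91, 8.48, 8.63 and 8.32 in Raptor-deficient cells, against 7.73, 8.25, 8.30 and 7.99 in wild-type cells. Every Raptor-deficient sample was above every wild-type sample at both times, by a narrow margin at 8 h. The difference was 1.54 ± 0.15 (SE) at 24 h, 2.90-fold (adjusted p = 1.7e-08), and 0.52 at 8 h (adjusted p = 0.0216). Without Raptor-deficient replicate 1 or 3, or wild-type replicate 1 or 4, the 8 h difference was 0.41, 0.50, 0.40 and 0.49, with adjusted p-values between 0.0502 and 0.101. Unstimulated levels averaged 5.26 ± 0.19 in Raptor-deficient cells and 5.12 ± 0.29 in wild-type cells (SD, n = 4 each), both under 5.51.

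The level of Tnfsf8 at 24 h also set the genotypes apart in their course. In wild-type cells Tnfsf8 fell by 1.31 between 8 h and 24 h (adjusted p = 1.41e-07). In Raptor-deficient cells the difference between 24 h and 8 h was -0.29, with a 95% interval of -0.60 to 0.02 and an adjusted p of 0.195. The 2 changes differed by 1.02 ± 0.21 (SE, adjusted p = 0.00314), in a comparison added after seeing the data that called 1 of the 10 members and 4.53% of all genes. In the order of group means Raptor-deficient 8 h, Raptor-deficient 24 h and wild-type 8 h cells came first, each overlapping the next, then wild-type 24 h cells apart from both neighbours, and last the overlapping unstimulated groups.

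Tnfsf11 (RANKL), known as the ligand that drives osteoclast formation, had the largest rise of the 10 genes with stimulation when each was read from its brightest probe set. It averaged 3.76 ± 0.42 in unstimulated Raptor-deficient cells and 3.78 ± 0.31 in unstimulated wild-type cells (SD, n = 4 each), both near background. By 8 h the measured intensity was 48.7-fold higher than in unstimulated cells in Raptor-deficient cells and 25.7-fold higher in wild-type cells, and by 24 h 65.9-fold and 39.9-fold higher. A second, dimmer probe set rose less, by 2.73 at 8 h in Raptor-deficient cells and 2.14 in wild-type cells on the log2 scale, and a second probe set of Tnfrsf9 rose more, by 6.17 and 5.88, so the order depends on the probe set. The 8 h samples stood at 9.41, 9.32, 9.38 and 9.37 in Raptor-deficient cells, against 8.11, 8.40, 8.56 and 8.79 in wild-type cells. At 24 h they stood at 9.96, 9.87, 9.65 and 9.75 in Raptor-deficient cells, against 8.92, 8.94, 9.16 and 9.38 in wild-type cells. The groups did not overlap at either time, and the 8 h wild-type samples were more spread than the Raptor-deficient ones. Differences were 0.90 ± 0.17 (SE) at 8 h (adjusted p = 0.000496) and 0.71 at 24 h (adjusted p = 0.00287). The dimmer probe set was also higher in Raptor-deficient cells, by 0.53 and 0.59 (adjusted p = 0.0163 and 0.0039). The response from unstimulated to 8 h was larger in Raptor-deficient cells by 0.92 (adjusted p = 0.019), with the second probe set at 0.59 and not called (adjusted p = 0.099). It was 1 of 10 members called in that comparison, against 6.29% of all genes.

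Tnfsf14 (LIGHT), a ligand of HVEM and of the lymphotoxin beta receptor, rose in both genotypes and was called between them at no time. Its samples ran from 7.52 to 7.97 in Raptor-deficient cells at 8 h, against 7.15 to 7.64 in wild-type cells, and at 24 h from 6.95 to 7.46 in Raptor-deficient cells, against 6.85 to 7.56 in wild-type cells. The groups overlapped at both times. The difference was 0.37 at 8 h (95% interval 0.06 to 0.68, adjusted p = 0.116) and 0.06 at 24 h (95% interval -0.25 to 0.36, adjusted p = 0.859). Between 8 h and 24 h it fell by 0.57 in Raptor-deficient cells (adjusted p = 0.00602), against a difference of -0.25 in wild-type cells (adjusted p = 0.233), and the difference between these changes was not called (adjusted p = 0.601). A second probe set of Tnfsf14 was called in no genotype comparison either.

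Cd40lg (CD40 ligand), the signal by which CD4 T cells help B cells, was the one ligand among the 10 genes called lower in Raptor-deficient cells. At 8 h its samples stood at 9.20, 9.50, 9.63 and 9.50 in Raptor-deficient cells, against 9.99, 9.96, 10.20 and 9.89 in wild-type cells. At 24 h they stood at 8.78, 8.77, 9.02 and 8.93 in Raptor-deficient cells, against 9.14, 9.04, 9.18 and 9.52 in wild-type cells. Every Raptor-deficient sample was below every wild-type sample at both times, with a narrow gap at 24 h. Only the 8 h difference passed the test, at -0.56 ± 0.14 (SE, adjusted p = 0.00653). At 24 h the difference was -0.35 (95% interval -0.63 to -0.06, adjusted p = 0.0781), and it was called in 6 of 35 alternative settings. In unstimulated cells the difference was -0.36 with overlapping samples (adjusted p = 0.204). In both genotypes the gene was highest at 8 h, 4.81-fold over unstimulated in Raptor-deficient cells and 5.50-fold in wild-type cells, and then fell by 0.58 in Raptor-deficient cells and by 0.79 in wild-type cells.

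Among the receptors, Tnfrsf9 (4-1BB, CD137), a costimulatory receptor that appears on activated T cells, rose the most on its brightest probe set. Unstimulated means were 5.42 ± 0.38 in Raptor-deficient cells and 5.25 ± 0.27 in wild-type cells, both near background, and by 8 h the intensity was 28.1-fold and 24.0-fold higher in these genotypes. At 24 h its samples stood at 10.01, 9.93, 10.12 and 10.05 in Raptor-deficient cells, against 9.03, 8.98, 9.10 and 9.12 in wild-type cells. The groups were far apart beside their own ranges. The difference was 0.97 ± 0.13 (SE), 1.96-fold (adjusted p = 4.52e-06). At 8 h the samples stood at 10.12, 10.37, 10.30 and 10.15 in Raptor-deficient cells, against 9.79, 9.88, 9.88 and 9.77 in wild-type cells, a difference of 0.40 without overlap (adjusted p = 0.0471). That call was lost in 21 of 35 alternative settings, with adjusted p-values of up to 0.136, among them the omission of any 1 of the 4 Raptor-deficient or 4 wild-type 8 h samples. Between 8 h and 24 h Tnfrsf9 fell by 0.77 in wild-type cells (adjusted p = 5.88e-05), against a difference of -0.21 in Raptor-deficient cells (adjusted p = 0.314). The difference between these changes, 0.565, was not called (adjusted p = 0.102), in the comparison added after seeing the data. It was called in 4 of 36 alternative settings. Tnfrsf9 has 3 probe sets. A second gave 1.13 at 24 h (adjusted p = 0.000477) and 0.44 at 8 h (adjusted p = 0.242), and the third, whose group means of 3.78 to 4.10 all lay under the median of all values, showed no call between genotypes and no rise with stimulation.

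Tnfrsf18 (GITR) is a costimulatory receptor that is also abundant on regulatory T cells. At 24 h it stood at 10.06, 10.02, 10.20 and 10.06 in Raptor-deficient cells, against 9.53, 9.44, 9.49 and 9.48 in wild-type cells. The groups did not overlap, and each had a small spread. The difference was 0.60 ± 0.10 (SE, adjusted p = 5.11e-05), with 0.17 at 8 h (adjusted p = 0.306) and 0.06 in unstimulated cells (adjusted p = 0.862). It went on rising between 8 h and 24 h in both genotypes, by 0.84 in Raptor-deficient cells and 0.42 in wild-type cells (adjusted p = 2.94e-07 and 0.00163).

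Tnfrsf4 (OX40), its neighbour on chromosome 4 and a receptor that prolongs T cell responses, rose at 8 h and again by 24 h in both genotypes and was not called between them. Its 24 h samples ran from 9.50 to 9.77 in Raptor-deficient cells, against 9.45 to 9.63 in wild-type cells, and its 8 h samples from 8.84 to 9.17 in Raptor-deficient cells, against 8.89 to 9.17 in wild-type cells. The groups lay over each other at both times. The difference was -0.02 at 8 h (95% interval -0.25 to 0.20) and 0.07 at 24 h (95% interval -0.15 to 0.30). In unstimulated cells it was 0.30 (95% interval 0.07 to 0.52, adjusted p = 0.191).

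Tnfrsf1b (TNF receptor 2) binds TNF and lymphotoxin alpha. It was the one receptor called in unstimulated cells, where its samples stood at 7.09, 7.60, 6.84 and 6.91 in Raptor-deficient cells, against 6.76, 6.31, 6.12 and 6.45 in wild-type cells. At 24 h they stood at 8.70, 8.59, 8.57 and 8.57 in Raptor-deficient cells, against 8.07, 7.86, 7.96 and 7.98 in wild-type cells. The groups did not overlap at either time, though in unstimulated cells the lowest Raptor-deficient and the highest wild-type sample were close. The difference was 0.70 ± 0.13 (SE) in unstimulated cells (adjusted p = 0.00222) and 0.64 at 24 h (adjusted p = 0.000397), with 0.26 at 8 h not called (adjusted p = 0.206). A second, dimmer probe set gave 0.06 in unstimulated cells (adjusted p = 0.916) and 0.35 at 24 h (adjusted p = 0.0796). Neither was called in the fit of all probe sets, so both calls rest on the brighter one. In a fit of the unstimulated groups alone the adjusted p was 0.19. The noisier arrays of the unstimulated Raptor-deficient group enter here, and of the 8 listed myeloid genes only S100a9 was called there, at 6.32 in Raptor-deficient cells and 5.43 in wild-type cells (adjusted p = 0.0201). S100a8 was at 0.76 (adjusted p = 0.0533), while Itgam, Cd14 and Fcer1g were slightly lower, by 0.05, 0.02 and 0.01. S100a9 was the brightest gene of the list in these Raptor-deficient cells. The summed myeloid list ran from 7.85 to 8.30 in unstimulated Raptor-deficient cells, against 7.57 to 7.75 in wild-type cells, and its part in the Tnfrsf1b difference was not tested.

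Cd27, the receptor for CD70, is present on naive T cells, and it was well above the median in every group. At 24 h it stood at 10.98, 10.98, 11.01 and 11.04 in Raptor-deficient cells, against 10.18, 10.07, 9.68 and 10.18 in wild-type cells. Every Raptor-deficient sample lay above every wild-type sample, and wild-type replicate 3 was the lowest of its group at each time. The difference was 0.98 ± 0.13 (SE), 1.97-fold (adjusted p = 4.28e-06). At 8 h the difference was 0.33 (adjusted p = 0.118) and in unstimulated cells 0.17 (adjusted p = 0.653), neither called. Against unstimulated cells Cd27 was 0.75 higher at 24 h in Raptor-deficient cells (adjusted p = 4.28e-05), while in wild-type cells, after a rise of 1.04 at 8 h, it was at 10.03 ± 0.24 at 24 h, against 10.08 ± 0.33 in unstimulated cells (SD, n = 4 each). Between 8 h and 24 h it fell by 0.45 in Raptor-deficient cells and by 1.10 in wild-type cells. These changes differed by 0.65, just short of a call (adjusted p = 0.0504), in the comparison added after seeing the data. The difference was called in 14 of 36 alternative settings. In bulk samples such as these, more cells with a transcript and more transcript in each cell cannot be told apart.

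**Figure D4:**
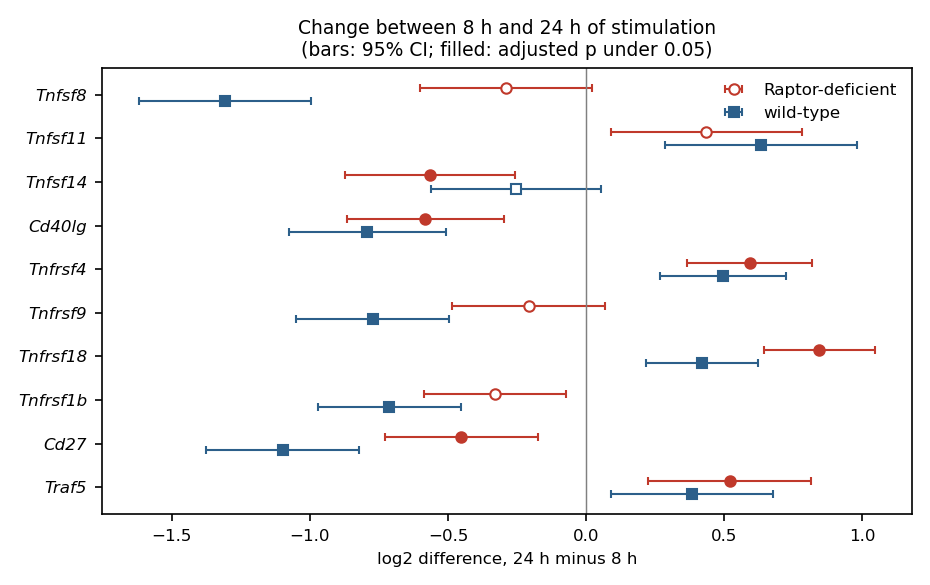
Change of each gene between 8 h and 24 h of stimulation, as the log2 difference of 24 h minus 8 h with 95% confidence intervals, Raptor-deficient cells as circles above wild-type cells as squares; filled points have an adjusted p under 0.05. Tnfsf8, Cd40lg, Tnfrsf9, Tnfrsf1b and Cd27 lie farther below 0 in wild-type than in Raptor-deficient cells, a difference between genotypes that was called for Tnfsf8.

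Between 8 h and 24 h, 6 of 10 members were called in Raptor-deficient cells (23% of all genes) and 9 of 10 in wild-type cells (28.3% of all genes). Tnfrsf4, Tnfrsf18 and Traf5 rose in both genotypes, and Cd40lg and Cd27 fell in both. The difference between genotypes in the response from unstimulated to 24 h was called for 5 of the 10 genes, all larger in Raptor-deficient cells, where 13.3% of all genes were called and 5.26% were larger. It was 1.40 for Tnfsf8, 0.72 for Tnfsf11, 0.79 for Tnfrsf9, 0.54 for Tnfrsf18 and 0.81 for Cd27 (adjusted p = 4.28e-05, 0.0436, 0.00542, 0.00977 and 0.00478). The Tnfsf11 call was lost in 21 of 36 alternative settings, with adjusted p-values of up to 0.15. For Tnfrsf1b, whose genotype difference was already present without stimulation, the response differed by -0.05 (95% interval -0.42 to 0.31). These response differences share their 24 h samples with the genotype differences at 24 h.

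Traf5, an adaptor that binds the tails of several of these receptors, went the other way. In unstimulated cells its samples stood at 7.32, 7.42, 7.29 and 7.64 in Raptor-deficient cells, against 8.17, 8.01, 7.92 and 7.97 in wild-type cells. At 8 h they stood at 6.36, 6.55, 5.74 and 6.63 in Raptor-deficient cells, against 7.25, 7.01, 6.63 and 6.94 in wild-type cells, and at 24 h at 6.85, 6.89, 6.65 and 6.97 in Raptor-deficient cells, against 7.25, 7.41, 7.39 and 7.32 in wild-type cells. The groups overlapped at 8 h by the edge and not at the other times. The difference was -0.60 in unstimulated cells, -0.64 at 8 h and -0.50 at 24 h (adjusted p = 0.0263, 0.00283 and 0.0117), and the response to stimulation differed by -0.04 and 0.10, neither called. In unstimulated cells the call was lost without Raptor-deficient replicate 1, wild-type replicate 1 or wild-type replicate 2 (differences of -0.57, -0.55 and -0.60, adjusted p = 0.0617, 0.0924 and 0.0588). Stimulation lowered Traf5 in both genotypes, by 8 h 2.14-fold in Raptor-deficient cells and 2.08-fold in wild-type cells.

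Of the binding partners of these genes that were analysed, most lay under 5.51 in every group. Cd40, the receptor of CD40 ligand, was at 7.97 in Raptor-deficient cells and 7.80 in wild-type cells at 8 h, and Tnfrsf14, the HVEM receptor of LIGHT, at 6.97 in Raptor-deficient cells and 7.26 in wild-type cells. Neither was called between genotypes at any time. Tnf, a ligand of Tnfrsf1b, rose with stimulation in both genotypes and was at 8.43 in Raptor-deficient cells and 8.53 in wild-type cells at 8 h, a difference not called (adjusted p = 0.663). Lta, lymphotoxin alpha, was lower in Raptor-deficient cells at 8 h, at 7.70, against 8.35 in wild-type cells (adjusted p = 0.00281). The ligand genes Tnfsf4, Tnfsf9 and Cd70 of OX40, 4-1BB and CD27, and the receptor genes Tnfrsf8, Tnfrsf11a, Tnfrsf11b and Ltbr, had group means under 5.51 throughout. Tnfrsf8 (CD30), the receptor of Tnfsf8, had group means between 3.25 and 3.56.

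**Figure D5:**
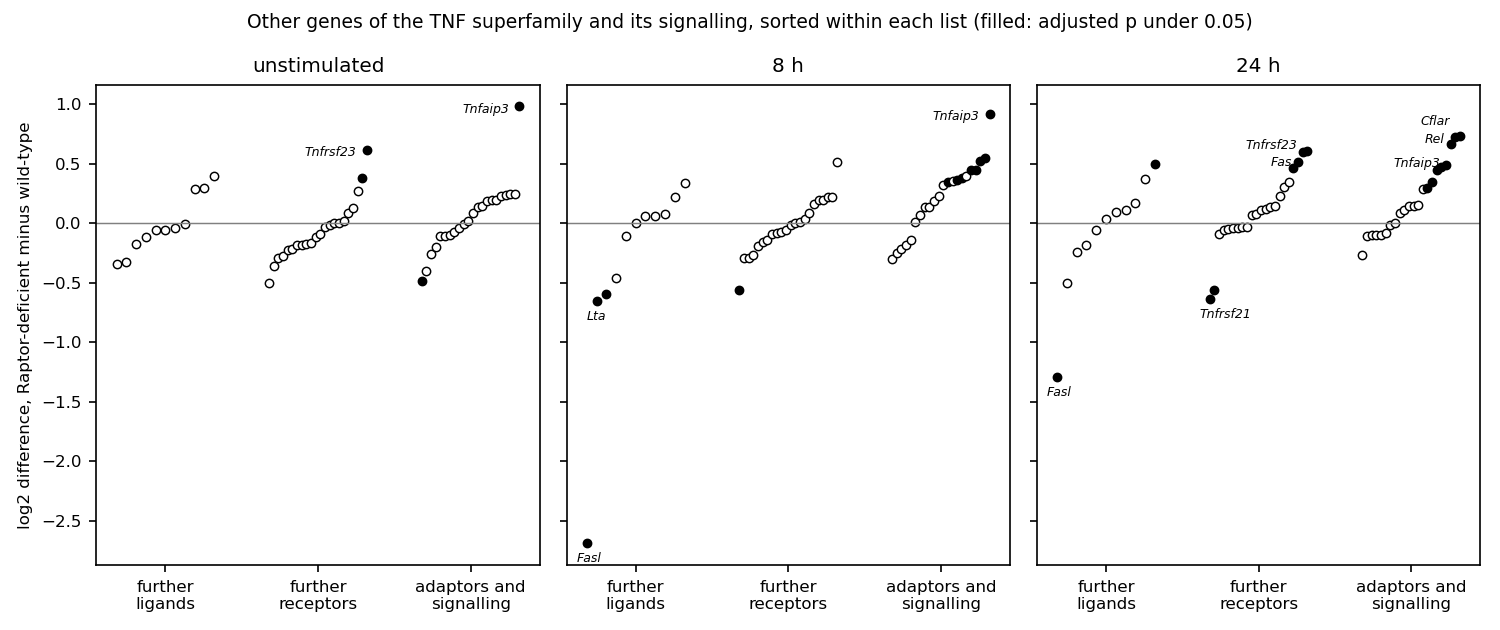
Log2 difference of Raptor-deficient minus wild-type cells for the other genes of the superfamily and its signalling, unstimulated, at 8 h and at 24 h, sorted within 3 lists; filled points have an adjusted p under 0.05, and those at 0.6 or more in size are named. Fasl lies lowest at 8 h and 24 h, and the filled points of the signalling list lie above 0 at 8 h and 24 h.

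Beyond the 10 members, 11 of 14 further ligands, 22 of 23 further receptors and 22 of 26 adaptors and signalling genes were measured. These lists were drawn up by name, with earlier results of these data known. Of the ligands 0, 0 and 1 were higher and 0, 3 and 1 lower in Raptor-deficient cells in the unstimulated, 8 h and 24 h comparisons, so that 0, 3 and 2 of 11 were called, against 1.94%, 12.9% and 21.5% of all genes. Fasl, the death ligand, had the largest difference of these lists. Its samples stood at 4.26, 3.71, 3.72 and 3.87 in Raptor-deficient cells at 8 h, against 6.56, 6.92, 6.46 and 6.37 in wild-type cells, and at 4.53, 4.87, 5.12 and 5.26 in Raptor-deficient cells at 24 h, against 6.17, 6.21, 6.23 and 6.32 in wild-type cells. The groups were well apart at both times, with the Raptor-deficient samples under 5.51, near background. The differences were -2.69 at 8 h and -1.29 at 24 h (adjusted p = 1.01e-11 and 4.1e-07). Ltb, lymphotoxin beta, was lower at 8 h, at 7.26 in Raptor-deficient cells and 7.86 in wild-type cells (adjusted p = 0.0154), and Tnfsf10 (TRAIL) was higher at 24 h, at 6.19 in Raptor-deficient cells and 5.69 in wild-type cells (adjusted p = 0.000992).

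Of the further receptors 2, 0 and 4 were higher and 0, 1 and 2 lower in these comparisons, so that 2, 1 and 6 of 22 were called, against 1.94%, 12.9% and 21.5% of all genes. The 24 h share is near that of all genes and the 8 h share is below it. Fas, the receptor of the death ligand, was higher at 24 h, at 6.35 in Raptor-deficient cells and 5.75 in wild-type cells (adjusted p = 0.00183). Tnfrsf10b, the TRAIL receptor, was lower at 8 h and 24 h by 0.56 each (adjusted p = 0.000373 and 0.000171), and Tnfrsf21 (DR6) was lower at 24 h by 0.64 (adjusted p = 0.0011). Tnfrsf22 and Tnfrsf23, decoy receptors of the mouse, were higher in unstimulated Raptor-deficient cells by 0.38 and 0.62 (adjusted p = 0.0335 and 0.0414), calls that were lost in 8 and 11 of 35 alternative settings. Tnfrsf22 was also higher at 24 h, by 0.47 (adjusted p = 0.000535), a call kept in all 35 settings.

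The signalling genes called between genotypes after stimulation were all higher in Raptor-deficient cells, with 14 of 22 not called at each of the 2 times. Of 22 measured, 8 were higher and 0 lower in Raptor-deficient cells at 8 h, and again 8 and 0 at 24 h, against 4.14% and 8.35% of all genes higher. The list's median difference was 0.27 at 8 h and 0.15 at 24 h, with 0.01 over all genes at both times. Tnfaip3 (A20), a feedback inhibitor of NF-kappaB, stood at 10.06, 9.33, 9.36 and 9.47 in unstimulated Raptor-deficient cells, against 8.64, 8.59, 8.64 and 8.40 in unstimulated wild-type cells. The groups did not overlap there or at either later time, and the differences were 0.98 unstimulated, 0.92 at 8 h and 0.67 at 24 h (adjusted p = 0.000241, 7.06e-05 and 0.0011). Rel, the NF-kappaB subunit c-Rel, was higher by 0.55 at 8 h and 0.73 at 24 h (adjusted p = 0.000127 and 9.15e-07). Cflar (c-FLIP), an inhibitor of death receptor signalling, was higher by 0.53 and 0.74 (adjusted p = 0.000201 and 7.62e-07). Nfkb2 at 8 h (0.45) and Birc2, a ubiquitin ligase bound by TRAF2, at 24 h (0.49) were higher as well, and Ikbkg was lower in unstimulated cells (-0.48, adjusted p = 0.0283), a call lost in 8 of 35 alternative settings.

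Genes that mark other cells were read beside these results. Of 5 measured genes of the list for regulatory T cells, cells that the CD25- gate should deplete, Ikzf2 was higher in Raptor-deficient cells at every time, at 5.48, 5.92 and 6.47 in Raptor-deficient cells, against 4.86, 4.44 and 5.28 in wild-type cells (adjusted p = 0.03, 2.11e-07 and 1.29e-06). Foxp3 was higher at 24 h, at 8.31 in Raptor-deficient cells and 7.53 in wild-type cells (adjusted p = 0.000275), and Nrp1 was lower, at 5.73 in Raptor-deficient cells and 6.25 in wild-type cells (adjusted p = 0.00297). The list's summed level at 24 h ran from 8.87 to 9.16 in Raptor-deficient cells, against 8.34 to 8.75 in wild-type cells. Foxp3 was the brightest gene in that sum, and Itgae and Ebi3 were called between genotypes at no time. Of 7 B cell genes 3 were higher at 24 h, with a summed level of 8.24 to 8.84 in Raptor-deficient cells, against 7.68 to 7.93 in wild-type cells. These were Pax5, at 6.08 in Raptor-deficient cells and 4.70 in wild-type cells (adjusted p = 3.55e-06), H2-Aa, at 6.70 in Raptor-deficient cells and 5.99 in wild-type cells (adjusted p = 2.57e-06), and Cd79a, at 6.00 in Raptor-deficient cells and 5.36 in wild-type cells (adjusted p = 0.0443). Ms4a1, which defines B cells, was at 3.95 in Raptor-deficient cells and 3.49 in wild-type cells, near background and not called (adjusted p = 0.142), and H2-Aa was higher at 8 h too (adjusted p = 0.000736). Of 8 myeloid genes 2 were higher at 24 h, of 7 NK cell genes 1 was, and of 2 CD8 T cell genes and 5 liver genes 0 were. At 8 h 2 of the 8 myeloid genes were called, S100a8 and S100a9, higher in Raptor-deficient cells by 1.02 and 0.84 (adjusted p = 0.0011 and 0.00528). The summed myeloid list then ran from 7.98 to 8.34 in Raptor-deficient cells, against 7.55 to 7.67 in wild-type cells. S100a9 was the brightest gene in that sum. In unstimulated cells 1 NK gene was called, Klrd1, at 5.50 in Raptor-deficient cells and 7.15 in wild-type cells (adjusted p = 1.25e-05). The part of these cells in the differences of the 10 genes was not tested.

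Genes whose 6 group means followed a member most closely, after each gene was centred on its own mean, were sought among 9052 genes with a group at or above the median. The closest to Tnfsf8 were Adamts6 and Slc7a1, a cationic amino acid transporter, at root mean square distances of 0.222 and 0.325 on the log2 scale. The closest to Tnfsf11 were Il2ra, the interleukin 2 receptor alpha chain, and Spin4, at 0.496 and 0.624. These are wide distances beside those of the other members, with a range of 6.04 between the highest and lowest mean of Tnfsf11. Bcl2a1a and Myc were closest to Tnfrsf9 (0.236 and 0.274), Cdk6 and Il3 to Tnfrsf4 (0.112 and 0.179), and Vsir (VISTA) and Lilrb4a, both inhibitory receptors, to Cd27 (0.143 and 0.183). Pwp2 and Nfatc1 were closest to Tnfsf14 (0.0992 and 0.139), Mrps6 and Noc3l to Cd40lg (0.148 and 0.178), Mrpl52 and G6pc3 to Tnfrsf18 (0.132 and 0.135), Rsad1 and Lcp2 to Tnfrsf1b (0.130 and 0.208), and Gpd1l and Ccs to Traf5 (0.114 and 0.132). These distances describe 6 means each and carry no test.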

How the data were processed

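RNA of 24 samples was measured on Affymetrix HT MG-430 PM arrays after amplification of 20 ng of RNA with NuGEN kits. The values that the authors deposited are log2 intensities, made with RMA and Partek 6.5 per the submitters' processing notes; they were used as deposited, and precision is limited by how many arrays a group has. Of 45141 probe sets 28898 named 1 gene symbol in the platform annotation, 551 named several and 15692 were not listed, and symbols of 28689 were updated through RefSeq. The probe set with the highest mean stood for a gene, which gave 17097 genes without a filter on dim values.

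The test was limma (version 3.58.1, R 4.3.3) with 6 group means over all 24 samples, 18 residual degrees of freedom, empirical Bayes moderation, two-sided tests, and Benjamini-Hochberg adjustment over all genes within each of 11 comparisons and 1 added after seeing the data. An adjusted p under 0.05 made a call. Other probe sets of a gene were tested by the same steps in a separate fit, adjusted over all 45141 probe sets. The same steps recovered large known changes, placed in Raptor-deficient 24 h cells, in simulated data. The simulated noise was independent and alike on all arrays, unlike that of the noisier unstimulated Raptor-deficient arrays. How well small differences, like most of those between genotypes, were recovered is not given here. The members, the lists of other genes, the cell type markers and the rule for named genes were chosen with earlier results of these data known. Named beside the members are up to 4 called genes with the smallest p per list and genotype comparison, the members' binding partners, and the 2 genes nearest to each member. Tnfsf12, Tnfsf15, Tnfsf18, Tnfrsf26, Traf3, Ripk1, Nfkb1 and Chuk of the lists were not analysed here. Alternatives were other probe sets and their mean, a filter on dim genes, other scalings, a trended robust prior, array weights, fits of the compared groups alone, replicate blocks, and the omission of single samples. Promoter windows came from a RefSeq table of GRCm38.p6, and the array's own genome build was not used.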

Additional observations from a re-analysis of the deposited data

Results flagged for a closer look

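Of 60 groups of 4 values, 2 held a sample far from the other 3, where chance gives about 1 in 20. Both concern Tnfrsf1b in Raptor-deficient replicate 1: at 8 h it was 9.04, with the others between 8.90 and 8.91, and at 24 h it was 8.70, with the others between 8.57 and 8.59. In both groups the other 3 samples lay close together, and every Raptor-deficient sample remained above the wild-type samples of its time.

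The response to stimulation differed between genotypes, by a test of the difference itself, for 5 of the 10 genes. From unstimulated to 8 h the rise of Tnfsf11 was larger in Raptor-deficient cells by 0.92 (adjusted p = 0.019, limma), where 6.29% of all genes were called. From unstimulated to 24 h the change was larger in Raptor-deficient cells by 1.40 for Tnfsf8, 0.72 for Tnfsf11, 0.79 for Tnfrsf9, 0.54 for Tnfrsf18 and 0.81 for Cd27 (adjusted p = 4.28e-05, 0.0436, 0.00542, 0.00977 and 0.00478). Of all genes, 13.3% were called in that comparison and 5.26% were larger. The Tnfsf11 call at 24 h was lost in 21 of 36 alternative settings. Between 8 h and 24 h the change of Tnfsf8 differed by 1.02 (adjusted p = 0.00314). That comparison was added after seeing the data and called 4.53% of all genes. Unstimulated Tnfsf8, Tnfsf11 and Tnfrsf9 lay near background in both genotypes, so for these genes the difference in response is close to the difference at the stimulated time.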

How the results depend on the processing

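Over 120 pairs of a member and a comparison, 4290 values under alternative settings kept their side of the threshold 4171 times, 51 of these with another sign below the threshold, lost the call 69 times, gained it 50 times and reversed a called value 0 times. Of the pairs, 101 had every value on the same side. These counts leave out other probe sets read singly. Among those left out is the second probe set of Tnfrsf1b, on which its genotype calls were lost. The dimmest probe set of Tnfrsf9 turned the sign of 7 called differences, to -0.0719 and -0.1805 between genotypes at 8 h and 24 h, -0.0125 and -0.2126 for Raptor-deficient cells and -0.0526 and -0.1442 for wild-type cells at 8 h and 24 h against unstimulated, and -0.0684 for the difference in 24 h response, none called. Between genotypes in unstimulated cells the 2 called members became 1 with array weights, 0 in a fit of the compared groups alone and 1 without Raptor-deficient samples 2 and 3, an omission chosen after seeing the data, and 1 to 3 when single samples were left out; wild-type replicates 1 and 2 each gave 1. At 8 h the 5 called members became 3 to 5 when single samples were left out, with 3 without Raptor-deficient replicate 1 or 3 or wild-type replicate 1 or 4. The 1 member called for the difference in 8 h response became 0 in a fit of the compared groups alone. The 1 called for the difference in change from 8 h to 24 h became 2 with the mean of probe sets, the dim filter, the trended prior or without Raptor-deficient unstimulated samples 2 and 3, 4 with array weights, 5 in a fit of the compared groups alone, and 1 to 3 when single samples were left out. The labels do not say what a replicate number marks, and no pair of groups had all 4 same-numbered correlations over 0.1, so the numbers were not taken as pairing the samples; in the 24 h groups each sample correlated best with its own number (0.251, 0.0641, 0.171 and 0.105, against at most 0.0435 for other numbers), a hint of pairing there from the data and not from the design. A block on the replicate number, fixed or random, called 2 members, Tnfsf8 and Cd27, for the difference in change from 8 h to 24 h. With the block fixed 8 were called between genotypes at 24 h, Cd40lg being added (adjusted p = 0.0479). For the difference in 24 h response 4 were then called, without Tnfsf11 (adjusted p = 0.0561). The call of Traf5 between 24 h and 8 h in wild-type cells was lost in 14 of 36 settings. Over all genes, 332 called between genotypes in unstimulated cells became 52 in a fit of those groups alone, 179 with array weights and 196 to 718 when single samples were left out. The 8 adaptor and signalling genes at 8 h became 13 with array weights, and the 1 further receptor at 8 h became 1 to 3. The cause of these shifts was not tested.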

Other observations

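At 24 h against unstimulated, 6 of 11 further ligand genes rose and 2 fell in Raptor-deficient cells, against 5 and 3 in wild-type cells, where 39.1% and 49.7% of all genes were called in these genotypes. Tnfsf4, the ligand of OX40, was at 5.43 in Raptor-deficient cells at 24 h and 3.88 unstimulated (adjusted p = 2.17e-07, limma), and in wild-type cells at 5.05 at 24 h and 3.99 unstimulated (adjusted p = 4.23e-05), all under the median of all values. Of 22 further receptor genes, 8 rose and 2 fell in Raptor-deficient cells at 24 h, against 5 and 4 in wild-type cells, so that 10 and 9 were called, near the shares of all genes. Tnfrsf14 was among those that rose in Raptor-deficient cells, at 7.16 at 24 h and 6.83 unstimulated (adjusted p = 0.0125), with a difference of 0.02 in wild-type cells (adjusted p = 0.893). The difference between genotypes in this change of Tnfrsf14 was 0.31 (adjusted p = 0.191), not called; for the list counts no such difference was tested.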
